A study of Saccharomyces cerevisiae with 12 samples.

Results

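Respiratory chain and ATP synthase genes of Saccharomyces cerevisiae were measured by RNA-seq in 6 genotypes, all collected 1 h after a change of medium. The 39 genes are nuclear genes for subunits of the chain and of the ATP synthase, chosen by gene symbol from the 7126 genes of the deposited table. They comprise 3 NADH dehydrogenases, 4 subunits of succinate dehydrogenase, 9 of the cytochrome bc1 complex, 2 forms of cytochrome c, 9 subunits of cytochrome c oxidase and 12 of the ATP synthase. The genotypes, 2 libraries each, were the double mutants opi1set2 (without OPI1 and SET2) and cho2set2 (without CHO2 and SET2), the single mutants opi1, cho2 and set2, and the wild type (WT), all in the CEN.PK background. Set2 methylates histone H3 at a lysine within transcribed genes; Opi1 represses phospholipid synthesis genes, and Cho2 methylates phosphatidylethanolamine. Cells of all groups had been grown in log phase in YPL, a rich medium with lactate, washed, and kept for 1 h in SL, a minimal medium with lactate.

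Lactate is a carbon source that yeast must respire. NADH dehydrogenases and succinate dehydrogenase pass electrons to ubiquinone, the bc1 complex passes them on to cytochrome c, and cytochrome c oxidase transfers them to oxygen; budding yeast has single-subunit NADH dehydrogenases that pump no protons. The proton gradient made by the bc1 complex and the oxidase drives the ATP synthase, whose F1 head makes ATP, whose stalks link head and membrane, and whose g subunit (Atp20) helps the enzyme to form dimers. Most of these genes are activated by the CCAAT-binding Hap2/3/4/5 complex in respiring cells, and some also by the heme-dependent activator Hap1. Yeast keeps pairs of isoforms for some steps: Cox5a and Cyc1 are the main aerobic forms, while Cox5b and Cyc7 are favoured when oxygen or heme is low, and Nde1 and Nde2 both oxidise NADH outside the inner membrane.

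Total counts ran from 7383001 to 9461609 per library. The deleted genes had 0 to 13 counts where they should be missing, except that SET2 had 50 counts in the library labelled cho2set2 replicate 1, against 0 in cho2set2 replicate 2 and 149 to 239 in the 6 libraries with SET2, so that calls drawn on cho2set2 are also given without it. The labels do not give separate cultures for the 2 libraries of a genotype; p-values therefore cover only the spread between these samples, which may be technical. Levels are FPKM (fragments per kilobase of exon, relative to library size) scaled to equal library composition, and changes are log2 changes with their SE from edgeR's quasi-likelihood test on counts, 2 libraries against 2, called where the Benjamini-Hochberg adjusted p over all genes tested lay below 0.05. The 2 WT libraries stood apart for these genes: replicate 1 was above replicate 2 in 34 of 38 genes. The median size of the gap was 0.34 on the log2 scale, against 0.09 to 0.24 within the other 5 genotypes. The cho2 libraries, with a median size of 0.24, were as one-sided: replicate 1 was the higher in only 3 of 38 genes.

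These genes were among the most abundant transcripts of the culture. By mean level over the 12 libraries, 36 of the 39 ranked within the first 496 of 6583 genes tested. The highest was COX7 (YMR256C, chrXIII:778945-779127 in sacCer3, as for all positions given), a small oxidase subunit, with a mean of 3981 FPKM and rank 29. ATP15, the epsilon subunit of the F1 stalk, led the ATP synthase with 3681 FPKM, and the F1 alpha subunit ATP1 was its lowest member with 684 FPKM. SDH3, a membrane anchor of succinate dehydrogenase, averaged 3638 FPKM and its flavoprotein SDH1 616 FPKM. In the bc1 complex QCR10 was highest with 3097 FPKM. NDE1 averaged 503 FPKM and NDI1, the enzyme that faces the matrix, 420.1 FPKM. The alternative isoforms COX5B, with 24.5 FPKM, and CYC7, with 16.6 FPKM, ranked 4403 and 5052.

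The remaining gene, QCR8 (YJL166W, chrX:106434-106718), a subunit of the bc1 complex, was listed near 0 in every library, with 0 counts in the opi1set2 and opi1 libraries and 0 to 7 in the others. In those 4 libraries the upper limit that 0 counts leave, taken as 3 counts, was 0.35 to 0.406 CPM; it covers counting error only. Its counts rest on the reference genome the submitters name, sacCer3, while the strain is CEN.PK; whether the reads of this strain could be assigned to it was not tested. QCR8 is counted among the 39 but no change is given for it. Medians stated for the 39 genes, and those by promoter motif, include its value, while medians of the 38 genes leave it out.

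The 39 genes together took 4.26% and 4.40% of all counts in the opi1set2 libraries and 2.41% and 2.55% in the opi1 libraries. Their share was 3.71% and 3.57% in cho2set2 and 2.60% and 2.92% in cho2. In set2 it was 3.69% and 3.66%, and in WT 3.41% and 2.66%. By share of counts the opi1set2 libraries were thus the highest of the 12 and those of opi1 the lowest, and in each of the 3 pairs both libraries of the strain named for a SET2 deletion lay above both of the other. Summed as scaled FPKM, the measure used for levels below, the 39 genes came to 86170.2 and 86631 in opi1set2 and 53881 and 58878 in opi1, and to 74012 and 70197 in cho2set2 and 53439.5 and 62135 in cho2. They came to 67017 and 66325 in set2 and 68138 and 54696 in WT. On that scale set2 and WT overlapped, and the lowest library was of cho2 and not of opi1. As shares of bulk RNA, these values cannot tell apart fewer cells with the transcripts and less of them per cell. Summed over the complex, ATP synthase levels averaged 28035 ± 1402 FPKM (mean ± SD, n = 2) in opi1set2 and 17482 ± 1016 FPKM in opi1, and those of the oxidase 28053 ± 53.1 FPKM in opi1set2 and 18025 ± 1266 FPKM in opi1. For the NADH dehydrogenases the order turned on the scale. Their summed level was 1247 ± 37.4 FPKM in opi1set2 and 1350 ± 54.7 FPKM in opi1, while their share of counts was 0.217% and 0.209% in opi1set2 and 0.197% and 0.203% in opi1.

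**Figure D1:**
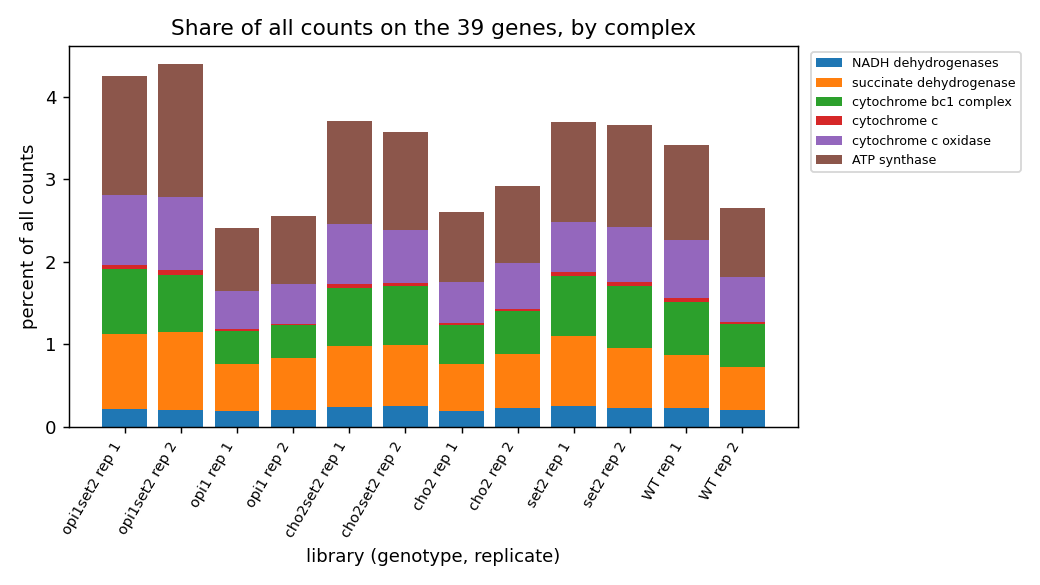
Share of all counts that fell on the 39 genes in each of the 12 libraries, in percent, stacked by complex. The 2 opi1set2 libraries stand at 4.26% and 4.40%, and the 2 opi1 libraries at 2.41% and 2.55%.

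The promoters of the genes were read from the RefSeq genome (assembly R64, to whose coordinates the deposited table corresponds), as a window of 300 bases that begins 400 bases before the start codon. The motif CCAAT, on either strand, was found in 34 of the 39 windows (87.2%) and in 44% of 5979 windows of all protein-coding genes. The longer form ACCAATNA, which contains CCAAT and resembles the sequence preferred by the Hap complex, was found in 15 of 39 (38.5%) and in 5.34% of all windows. The Hap1 consensus, a pair of CGG triplets spaced around a TA, was found in 1 of 39, the bc1 gene QCR6 with 2 matches, and in 0.217% of all windows. CCAAT was in all 12 ATP synthase windows and in 8 of 9 each of the bc1 complex and the oxidase, and in neither of the cytochrome c genes. The 10 ATP synthase and oxidase genes with ACCAATNA are shown because the 2 complexes hold most of the windows with this motif; each is 28 bases on the strand of the motif, 5′ to 3′, with the motif in capitals.
ATP3, chrII:315369-315396, plus strand: gtgatggagaACCAATGAgcggcgagta
ATP15, chrXVI:29935-29962, plus strand: ttttatacgaACCAATGAaatttgatcc
ATP4, chrXVI:408917-408944, minus strand: tcaatattgaACCAATCAcgacgctttt
ATP7, chrXI:408150-408177, minus strand: taaaagatacACCAATTAccacttgctg
ATP14, chrXII:722554-722581, minus strand: ccatacacgaACCAATTAtgcatcataa
ATP17, chrIV:1228371-1228398, plus strand: tacggagagaACCAATCAtatcgaagga
COX6, chrVIII:209478-209505, minus strand: ctttgaccggACCAATTAggtccctttt
COX8, chrXII:910150-910177, minus strand: aacggtttgcACCAATCAtacgagagaa
COX12, chrXII:225361-225388, minus strand: cataacattgACCAATCAattttcagaa
COX13, chrVII:144585-144612, plus strand: tttttttcccACCAATGAgaggcggtac

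The whole windows of CYC1, ATP20 and NDE2 are given as well, since the results turn on these genes: CYC1 and ATP20 had the largest rises with loss of SET2 in opi1 cells, and NDE2 the largest fall. CCAAT on either strand is in capitals. ATP20 holds it once, as ATTGG on the strand of the gene, and these letters are not in the windows of CYC1 and NDE2. For all 3 motifs only exact matches were counted, so a window without a match may still hold a site that departs from these letters.
CYC1, chrX:525935-526234, plus strand: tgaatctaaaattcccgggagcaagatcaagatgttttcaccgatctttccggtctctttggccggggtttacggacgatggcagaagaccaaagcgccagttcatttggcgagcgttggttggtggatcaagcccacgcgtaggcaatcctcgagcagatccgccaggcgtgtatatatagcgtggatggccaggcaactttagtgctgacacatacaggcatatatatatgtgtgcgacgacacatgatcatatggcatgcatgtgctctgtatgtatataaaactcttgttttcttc
ATP20, chrXVI:599470-599769, plus strand: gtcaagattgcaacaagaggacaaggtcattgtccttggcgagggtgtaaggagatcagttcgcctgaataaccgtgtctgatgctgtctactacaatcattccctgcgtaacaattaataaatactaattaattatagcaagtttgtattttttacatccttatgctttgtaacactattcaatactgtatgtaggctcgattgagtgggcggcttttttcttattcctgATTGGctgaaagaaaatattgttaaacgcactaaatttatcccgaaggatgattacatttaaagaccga
NDE2, chrIV:302811-303110, plus strand: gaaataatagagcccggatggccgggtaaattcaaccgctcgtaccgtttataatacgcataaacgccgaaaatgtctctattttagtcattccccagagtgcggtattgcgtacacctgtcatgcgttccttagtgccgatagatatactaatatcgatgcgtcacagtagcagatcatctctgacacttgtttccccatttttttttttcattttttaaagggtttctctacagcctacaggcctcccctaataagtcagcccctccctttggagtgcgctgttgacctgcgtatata

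Loss of SET2 in cells without OPI1 gave the most calls among these genes of the 7 comparisons between genotypes. In opi1set2 against opi1, 30 of the 39 rose and 2 fell, where 44.3% of all 6580 genes tested were called, 23.5% higher and 20.8% lower. The median log2 change of the 38 genes other than QCR8 was 0.65, against 0.01 over all genes. All 12 ATP synthase genes rose, as did 7 of 9 oxidase genes, 7 of 9 of the bc1 complex, 2 of 4 of succinate dehydrogenase, CYC1 and NDE1; COX5B and NDE2 fell. In 37 of the 38 genes the 2 groups did not overlap, which held for 69.7% of all genes. SDH2, SDH3, QCR10, COX13, NDI1 and CYC7 did not pass the test, nor could QCR8.

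Among the electron donors to ubiquinone, the 2 external NADH dehydrogenases moved apart. NDE1 (YMR145C, chrXIII:554793-556475) stood at 577 and 625 FPKM in opi1set2 and 296 and 379 FPKM in opi1, a log2 change of 0.83 ± 0.18 (edgeR adjusted p = 0.00175). NDE2 (YDL085W, chrIV:303211-304848) stood at 210.0 and 240.2 FPKM in opi1set2 and 690.3 and 671 FPKM in opi1, a change of -1.60 ± 0.14 (edgeR adjusted p = 7.47e-07), or 3.02-fold lower. Both opi1set2 libraries were above both opi1 libraries for NDE1 and below them for NDE2. In succinate dehydrogenase the flavoprotein SDH1 rose by 0.74 ± 0.18 and the membrane anchor SDH4 by 0.73 ± 0.18 on the log2 scale. The iron-sulfur subunit SDH2 (0.25 ± 0.14) and the anchor SDH3 (0.27 ± 0.16) did not pass, with edgeR adjusted p of 0.167 and 0.184.

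In the bc1 complex, QCR6 (YFR033C, chrVI:224326-224769), an acidic subunit near cytochrome c1, showed the largest rise, with 2249 and 3321 FPKM in opi1set2 and 1267 and 1363 FPKM in opi1, a log2 change of 1.08 ± 0.19 (edgeR adjusted p = 0.000295). The core subunits QCR2 (0.79 ± 0.13) and COR1 (0.61 ± 0.16), cytochrome c1 (CYT1, 0.69 ± 0.15), the Rieske protein (RIP1, 0.62 ± 0.13) and the small subunits QCR7 (0.55 ± 0.16) and QCR9 (0.53 ± 0.16) rose as well. The opi1set2 libraries differed among themselves in this complex: QCR6 was higher in replicate 2, and QCR7, QCR9 and QCR10 in replicate 1. QCR10 had 4191 and 2503 FPKM in opi1set2 and 2626 and 2502 FPKM in opi1. Its change of 0.38 ± 0.19 did not pass (edgeR adjusted p = 0.108).

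CYC1 (YJR048W, chrX:526335-526664), the main form of cytochrome c, had the largest rise of the 39 genes. It stood at 1375 and 1586 FPKM in opi1set2 and 409.7 and 375 FPKM in opi1, a log2 change of 1.92 ± 0.21 (edgeR adjusted p = 5.89e-06), or 3.78-fold higher. Both opi1set2 libraries were far above both opi1 libraries. In the oxidase, COX6 (YHR051W, chrVIII:209705-210151) led, with 2205 and 3425 FPKM in opi1set2 and 1079 and 1419 FPKM in opi1, a change of 1.17 ± 0.21 (edgeR adjusted p = 0.000505). The other 6 oxidase genes that rose did so by 0.48 (COX7) to 0.75 (COX12) on the log2 scale. COX5B fell by 0.82 on that scale, and COX13, a subunit outside the catalytic core, was at 0.20 ± 0.14, which did not pass (edgeR adjusted p = 0.244).

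ATP20 (YPR020W, chrXVI:599870-600217), the dimer-forming subunit g of the ATP synthase, stood at 1253 and 1364 FPKM in opi1set2 and 402 and 359 FPKM in opi1, a log2 change of 1.78 ± 0.17 (edgeR adjusted p = 2.02e-06), or 3.44-fold higher. No other ATP synthase gene rose as much: the next were the peripheral stalk subunit ATP5 (0.98 ± 0.19) and the F1 head subunits ATP1 (0.97 ± 0.18) and ATP2 (0.87 ± 0.17). ATP5 had 1337 and 1893 FPKM in opi1set2 and 801 and 839.5 FPKM in opi1. ATP1 had 748 and 939 FPKM in opi1set2 and 402 and 461 FPKM in opi1. ATP2 had 1595 and 1731 FPKM in opi1set2 and 871 and 952 FPKM in opi1. In none of the 3 did the groups overlap. The remaining 8, of the central stalk (ATP3, ATP15, ATP16), the peripheral stalk (ATP4, ATP7, ATP14) and the membrane part (ATP17, ATP18), rose by 0.45 (ATP15) to 0.76 (ATP3). ATP1 overlaps YBL100C by 251 bases on the opposite strand, and the strand setting of the counting is not given in the sources used here, so their counts cannot be told apart; ATP14 overlaps YLR294C by 32 bases.

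The count of 32 called genes was 24 to 34 with 1 library left out, 32 under median-of-ratios scaling, by DESeq2 and with a replicate block, and 35 by limma on FPKM without composition scaling. That last setting moved the median over all genes to 0.19 and that of the 39 genes to 0.85, so the genes stood above all genes by about as much. Calls lost without a single library were those of ATP14, COX5B, COX7, QCR7, QCR9, ATP15, COX9, COR1 and SDH4; ATP14, for example, was at an edgeR adjusted p of 0.649 when opi1set2 replicate 1 was left out.

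**Figure D2:**
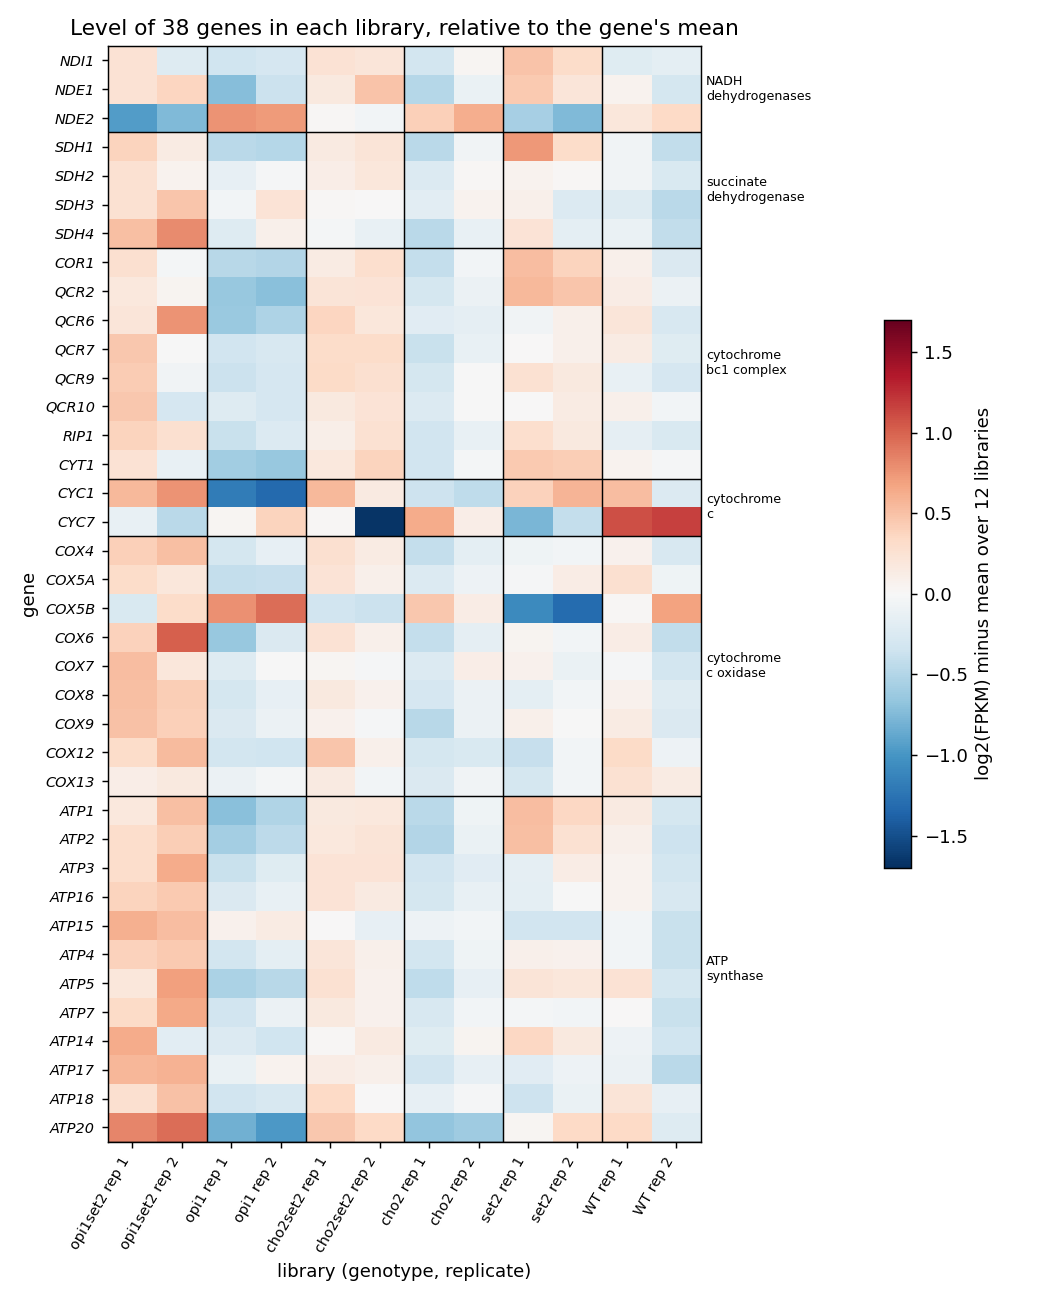
Level of each of the 38 genes other than QCR8 in the 12 libraries, as log2 FPKM minus the mean of the gene, by complex. The opi1set2 columns are red and the opi1 columns blue for most genes, with NDE2 and COX5B the other way round, and WT replicate 1 is above WT replicate 2 in 34 of the 38 genes.

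Loss of SET2 alone changed fewer of the genes and in both directions. In set2 against WT, 8 of the 39 rose and 4 fell, where 34.4% of all genes were called, 18.5% higher and 15.9% lower. The share of the 39 called was thus close to that of all genes. The groups did not overlap in 17 of the 38 genes, which held for 69.2% of all genes. The median change of the 38 genes was 0.13, against -0.01 over all genes. The 8 that rose were SDH1, NDI1, the bc1 subunits COR1, QCR2, RIP1 and CYT1, and the F1 subunits ATP1 and ATP2. The 4 that fell were CYC7, COX5B, NDE2 and COX13.

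SDH1 (YKL148C, chrXI:169207-171129), which carries the flavin that oxidises succinate, stood at 993 and 741 FPKM in set2 and 571 and 444 FPKM in WT, a log2 change of 0.77 ± 0.18 (edgeR adjusted p = 0.0038). NDI1 (YML120C, chrXIII:28266-29807), the only matrix-facing NADH dehydrogenase, stood at 579 and 513 FPKM in set2 and 358 and 366 FPKM in WT, a change of 0.59 ± 0.16 (edgeR adjusted p = 0.00917). In neither did the groups overlap, and the gap between the groups was smaller than that between the set2 libraries in SDH1. The other 6 rises lay between 0.42 (CYT1) and 0.53 (COR1). COR1 had 886 and 801 FPKM in set2 and 652 and 520.1 FPKM in WT, and ATP2 1849 and 1554 FPKM in set2 and 1381 and 1019 FPKM in WT.

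The falls in CYC7, COX5B and NDE2 exceeded all 8 rises in size, and CYC7 and COX5B are low-abundance genes. CYC7 (YEL039C, chrV:79636-79977) stood at 8.54 and 11 FPKM in set2 and 31.2 and 32.5 FPKM in WT, a log2 change of -1.70 ± 0.40 (edgeR adjusted p = 0.00464). COX5B (YIL111W, chrIX:155222-155765) stood at 10.5 and 9.0 FPKM in set2 and 22.6 and 35.6 FPKM in WT, a change of -1.58 ± 0.30 (edgeR adjusted p = 0.000942). NDE2 stood at 275 and 242 FPKM in set2 and 465 and 513 FPKM in WT, a change of -0.92 ± 0.13 (edgeR adjusted p = 0.000134). In all 3 genes both set2 libraries were below both WT libraries. COX13 fell by 0.37 on the log2 scale, with an edgeR adjusted p of 0.0471. The count of 12 was 2 without set2 replicate 1, 4 without WT replicate 2 and 10 to 13 in the 3 other fits with a library left out; COX5B and NDE2 passed in all 5. The median change of the 39 genes was -0.04 without WT replicate 2 and 0.33 without WT replicate 1.

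Loss of SET2 in cells without CHO2 gave mostly rises. In cho2set2 against cho2, 10 of the 39 rose and NDE2 fell, where 16.9% of all genes were called, 11.3% higher and 5.58% lower. The groups did not overlap in 33 of the 38 genes (59% of all genes), and the median change was 0.38 against 0.00 over all genes. The median change of the 39 genes was 0.25 without cho2 replicate 1 and 0.496 without cho2 replicate 2. ATP20 stood at 972 and 892 FPKM in cho2set2 and 444 and 467 FPKM in cho2, a log2 change of 1.03 ± 0.17 (edgeR adjusted p = 0.00061). CYC1 stood at 1379 and 1044 FPKM in cho2set2 and 738 and 694 FPKM in cho2, a change of 0.76 ± 0.20 (edgeR adjusted p = 0.018). These were the 2 largest rises, as in opi1 cells, and for both genes the groups did not overlap. NDE1 (0.62 ± 0.18), COX12 (0.57 ± 0.17), QCR7 (0.55 ± 0.16), ATP3 (0.49 ± 0.16), COX4 (0.48 ± 0.14), CYT1 (0.45 ± 0.15), QCR2 (0.42 ± 0.13) and RIP1 (0.40 ± 0.13) rose too. NDE2 had 411 and 393 FPKM in cho2set2 and 535 and 622 FPKM in cho2, a change of -0.53 ± 0.13 (edgeR adjusted p = 0.0129).

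When the library labelled cho2set2 replicate 1 was left out, 4 of the genes were called in this comparison, among them ATP20 with 0.97, NDE1 with 0.77 and NDE2 with -0.56 on the log2 scale. In that fit CYC1 was at 0.54 (edgeR adjusted p = 0.149) and COX12 at 0.37 (edgeR adjusted p = 0.245). ATP3 (0.49), COX4 (0.41) and QCR7 (0.56) did not pass in it either. The counts were 2 to 4 whichever of the 4 libraries was left out, and ATP20 was past the threshold in all 4 of these fits.

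**Figure D3:**
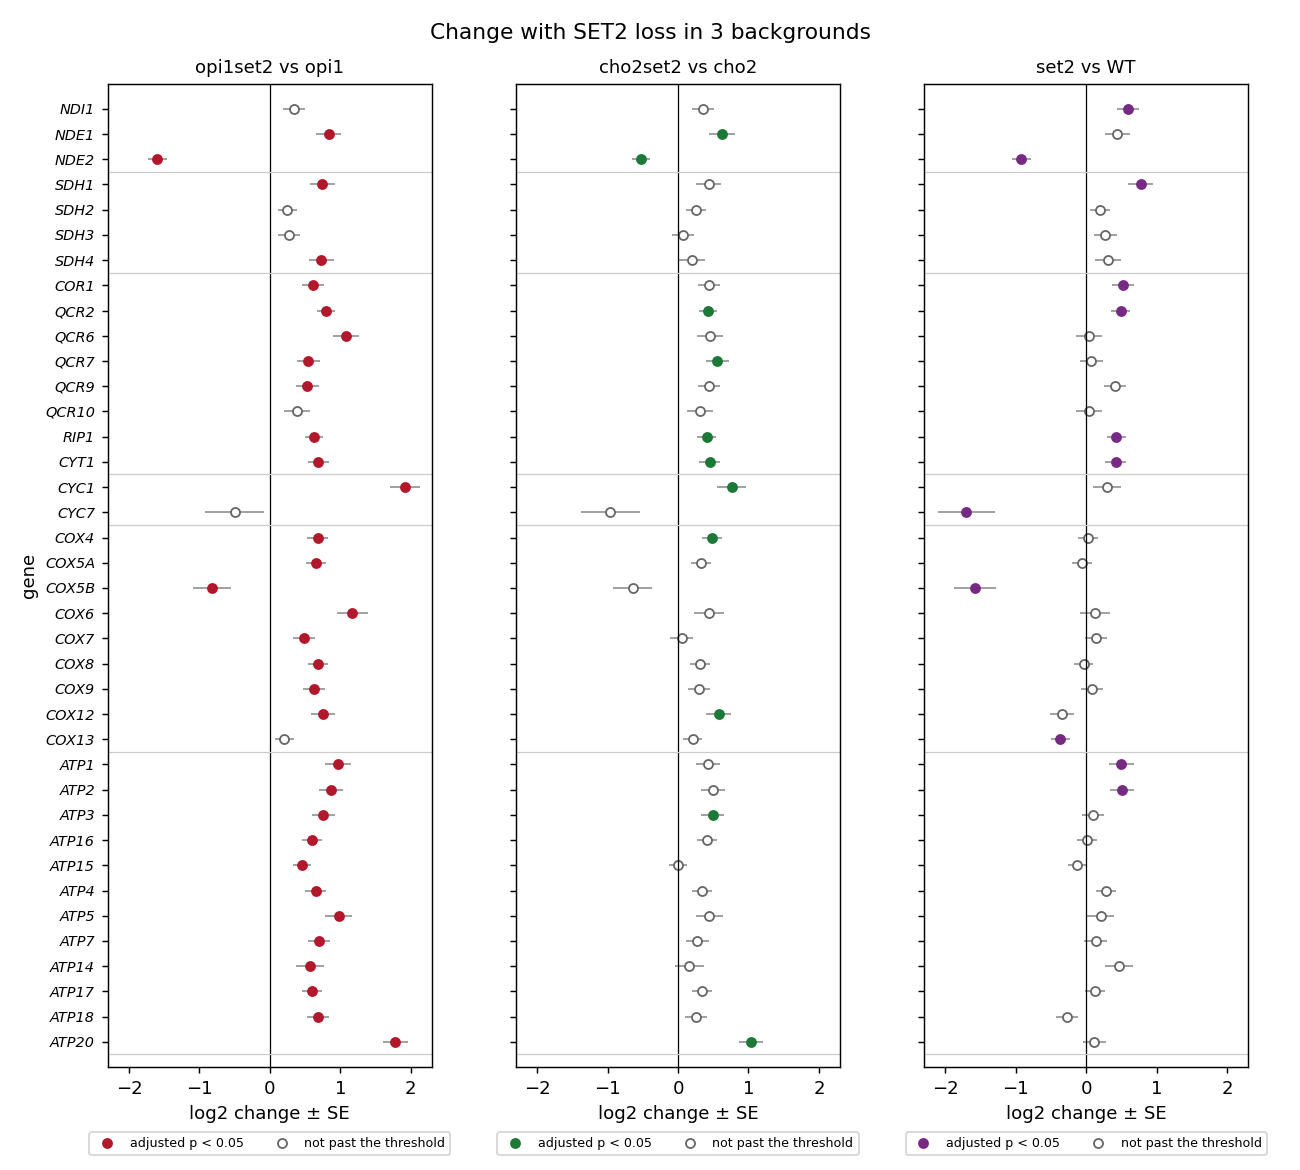
Log2 change ± SE with loss of SET2 in cells without OPI1, in cells without CHO2 and in cells with both, for 38 genes ordered by complex from the NADH dehydrogenases to the ATP synthase. Filled points passed an adjusted p of 0.05: 32 genes in opi1set2 against opi1, 11 in cho2set2 against cho2 and 12 in set2 against WT.

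The 3 comparisons share no library, so their calls can be set side by side. All 10 genes that rose in cho2set2 against cho2 were among the 30 that rose in opi1set2 against opi1, 100% of the first set and 33.3% of the second, where the second set holds 30 of the 39 genes. Over all genes, 83.8% of those that rose in cho2set2 against cho2 rose in opi1set2 against opi1. Of the 8 that rose in set2 against WT, 7 were among those 30, the exception being NDI1, where the share over all genes was 74.4%. QCR2, RIP1 and CYT1 of the bc1 complex rose in all 3, and NDE2 fell in all 3. Over all genes, 67.6% of those that fell in cho2set2 against cho2 also fell in opi1set2 against opi1, and 76.6% in set2 against WT. Of those that fell in set2 against WT, 56.7% fell in opi1set2 against opi1. In cho2set2 against cho2, the calls of QCR2, RIP1 and CYT1 were lost without the library with SET2 counts, but also without other libraries. Their log2 changes with 1 library left out ran from 0.34 to 0.52, 0.31 to 0.51 and 0.31 to 0.60. In set2 against WT, all 3 calls were lost without set2 replicate 1 and without WT replicate 2. Over all genes, those that rose or fell in all 3 comparisons were not counted.

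Whether SET2 loss acted differently without OPI1 was tested with the difference of the 2 changes, opi1set2 minus opi1 less set2 minus WT. It passed for 8 of the 39 genes, 7 more positive and 1 more negative, where 5.47% of all genes passed, 2.84% and 2.63%. ATP20 (1.66 ± 0.24, edgeR adjusted p = 0.00231) and CYC1 (1.63 ± 0.29, edgeR adjusted p = 0.00867) had the largest differences: the log2 changes with SET2 loss were 1.78 and 1.92 in cells without OPI1 and 0.12 and 0.29 in cells with it, of which the values in cells with OPI1 did not pass. The CYC1 value in set2 against WT was 0.72 without WT replicate 1, where it was called, and -0.038 without WT replicate 2. COX12 (1.09 ± 0.24), QCR6 (1.05 ± 0.26), ATP18 (0.96 ± 0.22), COX8 (0.72 ± 0.19) and COX5A (0.71 ± 0.20) were the other 5 more positive, and NDE2 (-0.68 ± 0.19) fell further without OPI1. With 1 library left out the count ran from 1 to 14; ATP20 passed in all 9 of these fits, CYC1 in 7 and each of the other 6 genes in 1 to 4. Without WT replicate 1, ATP20 and CYC1 were the 2 genes called. For CHO2, the same difference passed for 0 of the 39 genes in edgeR's test, where 0.912% of all genes passed. At an unadjusted p under 0.05 stood 6 of the 39, beside 844 of the 6583 genes tested. By DESeq2 it passed for 2 of the 39, and the DESeq2 count over all genes is given further below. The largest values were those of COX5B (0.94 ± 0.41), ATP20 (0.92 ± 0.24) and COX12 (0.91 ± 0.24). Without the library labelled cho2set2 replicate 1 these were 0.92, 0.85 and 0.70, and again 0 of the 39 were called by edgeR.

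Loss of OPI1 alone lowered some of the genes. In opi1 against WT, 7 of the 39 fell and NDE2 rose, where 17.7% of all genes were called, 8.94% higher and 8.77% lower. The groups did not overlap in 24 of the 38 genes (61.3% of all genes), and the median change was -0.21 against -0.01 over all genes. CYC1 stood at 409.7 and 375 FPKM in opi1 and 1354 and 802 FPKM in WT, a log2 change of -1.46 ± 0.21 (edgeR adjusted p = 0.000204). ATP20 stood at 402 and 359 FPKM in opi1 and 892 and 606 FPKM in WT, a change of -0.98 ± 0.17 (edgeR adjusted p = 0.00106). The 2 opi1 libraries lay close together and below both WT libraries for both genes, while the WT libraries lay further apart. QCR2 stood at 431 and 413 FPKM in opi1 and 736 and 630.1 FPKM in WT, a change of -0.70 ± 0.13 (edgeR adjusted p = 0.00174). CYT1 (-0.63 ± 0.15), ATP1 (-0.56 ± 0.18), QCR6 (-0.56 ± 0.18) and COX5A (-0.51 ± 0.14) fell as well. NDE2 stood at 690.3 and 671 FPKM in opi1 and 465 and 513 FPKM in WT, a change of 0.48 ± 0.13 (edgeR adjusted p = 0.0213). The genes called numbered 3 to 12 with 1 library left out, and CYC1, ATP20 and QCR2 passed in all 5 fits. The median change of the 39 genes was -0.06 without WT replicate 1.

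In cho2 against WT, ATP20 alone of the 39 was called, where 1.72% of all genes were, 0.243% higher and 1.47% lower. The groups did not overlap in 10 of the 38 genes (44.2% of all genes), and the median change was -0.15. ATP20 stood at 444 and 467 FPKM in cho2 and 892 and 606 FPKM in WT, a log2 change of -0.72 ± 0.17 (edgeR adjusted p = 0.0449). The groups did not overlap, but the call was made in 1 of 5 fits with a library left out, and neither with a replicate block nor by limma on FPKM. The median change of the 39 genes was 0.04 without WT replicate 1. It was -0.0392 without cho2 replicate 1 and -0.222 without cho2 replicate 2. CYC1 had 738 and 694 FPKM in cho2, below both WT libraries, and its change of -0.59 ± 0.20 did not pass (edgeR adjusted p = 0.237). The opi1 and cho2 comparisons share the WT libraries, between which CYC1 differed more than any other of the 38 genes.

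Loss of OPI1 in cells without SET2 gave mostly rises. In opi1set2 against set2, 13 of the 39 rose and QCR2 fell, where 25.8% of all genes were called, 13.5% higher and 12.3% lower. The groups did not overlap in 26 of the 38 genes (62.3% of all genes), and the median change was 0.30 against -0.02 over all genes. The rises were in 7 ATP synthase genes, 5 oxidase genes and SDH4. ATP15 stood at 5458 and 5176 FPKM in opi1set2 and 2875 and 2864 FPKM in set2, a log2 change of 0.89 ± 0.13 (edgeR adjusted p = 0.00035). ATP17, subunit f of the membrane part, stood at 4712 and 4819 FPKM in opi1set2 and 2789 and 2999 FPKM in set2, a change of 0.72 ± 0.14 (edgeR adjusted p = 0.0023). Neither pair of groups overlapped, and these 2 genes passed in every fit with a library left out, where the count ran from 4 to 18. COX5B (1.23 ± 0.30), COX6 (0.74 ± 0.21), ATP20 (0.69 ± 0.17), COX12 (0.63 ± 0.17), SDH4 (0.62 ± 0.18) and ATP18 (0.61 ± 0.16) also rose. QCR2 had 765 and 698 FPKM in opi1set2 and 984 and 931 FPKM in set2, a change of -0.39 ± 0.13 (edgeR adjusted p = 0.0379). With a library left out, the QCR2 change ran from -0.46 to -0.32. The calls of QCR2, COX5B, COX6, ATP20, COX12, SDH4 and ATP18 were each lost in some of these fits. CYC1 stood at 1375 and 1586 FPKM in opi1set2 and 1232 and 1406 FPKM in set2, a change of 0.17 ± 0.20 that did not pass (edgeR adjusted p = 0.579). In cho2set2 against set2, NDE2 alone was called (0.64 ± 0.13, edgeR adjusted p = 0.00732), where 7.89% of all genes were, 4.01% higher and 3.88% lower, and the groups did not overlap in 26 of the 38 genes (52.9% of all genes). By edgeR, 0 of the 39 genes were called without the library labelled cho2set2 replicate 1 or without set2 replicate 2.

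The isoform pairs shifted with the genotype. COX5A stood at 2735 and 2527 FPKM in opi1set2 and 1661 and 1685 FPKM in opi1, at 2589.8 and 2353 FPKM in cho2set2 and 1875 and 2080.5 FPKM in cho2, and at 2169.9 and 2417 FPKM in set2 and 2669 and 2108 FPKM in WT. COX5B had 18.5 and 27.5 FPKM in opi1set2 and 38.2 and 43 FPKM in opi1, 17.7 and 17.3 FPKM in cho2set2 and 30.5 and 24.1 FPKM in cho2, and 10.5 and 9.0 FPKM in set2 and 22.6 and 35.6 FPKM in WT. COX5B thus made up 0.673% and 1.08% of the pair in opi1set2 and 2.25% and 2.49% in opi1. Its share was 0.680% and 0.728% in cho2set2 and 1.60% and 1.15% in cho2, and 0.481% and 0.371% in set2 and 0.840% and 1.66% in WT. In each pair of genotypes both libraries of the strain named for a SET2 deletion had the lower share of COX5B.

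CYC7, the minor cytochrome c, had 13.4 and 10.6 FPKM in opi1set2 and 14.9 and 19 FPKM in opi1, 14.8 and 4.60 FPKM in cho2set2 and 22.7 and 15.7 FPKM in cho2. Its change passed only in set2 against WT among the 7 comparisons of groups tested, and the WT libraries, with 31.2 and 32.5 FPKM, were the 2 highest of the 12. Its share of the cytochrome c pair was 0.962% and 0.663% in opi1set2 and 3.52% and 4.82% in opi1. It was 1.06% and 0.439% in cho2set2 and 2.98% and 2.22% in cho2, and 0.688% and 0.774% in set2 and 2.25% and 3.89% in WT.

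The external NADH dehydrogenases, unlike the other pairs, were of similar abundance. NDE2 made up 26.7% and 27.8% of the pair in opi1set2 and 70.0% and 63.9% in opi1. It made up 42.9% and 36.5% in cho2set2 and 60.6% and 58.0% in cho2, and 29.4% and 30.1% in set2 and 47.8% and 56.5% in WT. NDE2 was thus the larger part of the pair in the opi1 and cho2 libraries and the smaller part in all 6 libraries of strains named for a SET2 deletion, the library labelled cho2set2 replicate 1 included. NDE1 itself had 662 and 563 FPKM in set2 and 507 and 394 FPKM in WT, and that change of 0.44 ± 0.18 did not pass (edgeR adjusted p = 0.069).

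**Figure D4:**
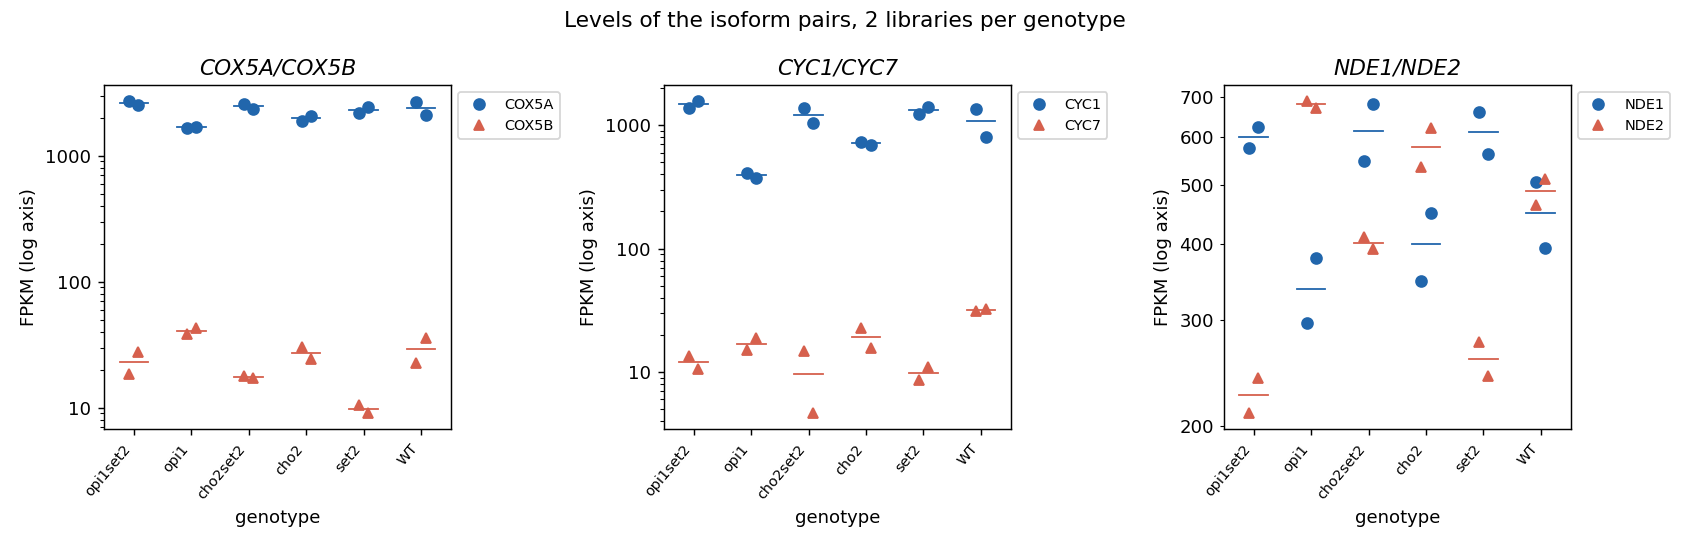
FPKM of both members of 3 isoform pairs in each genotype, on log axes; points are the 2 libraries and lines their mean. NDE2 lies above NDE1 in opi1 and cho2 and below it in opi1set2, cho2set2 and set2.

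The changes were set beside gene length, with 38 genes divided at 1000 bases of exon, a limit chosen after the values were seen. In opi1set2 against opi1, 6 of the 8 longer genes rose and 24 of the 30 shorter ones, with medians of 0.77 and 0.64; of all genes, 29.4% of the longer and 16.9% of the shorter were called higher. In set2 against WT, 6 of the 8 longer genes rose and 2 of the 30 shorter ones, with medians of 0.50 and 0.11. All genes went the same way in that comparison: 29.1% of those of at least 1000 bases and 6.63% of shorter ones were called higher, with medians of 0.15 and -0.21. Spearman's rho of change with length was 0.55 over the 38 genes and 0.37 over all genes, which are not independent replicates. In opi1set2 against set2, 0 of the 8 longer and 13 of the 30 shorter genes rose, against 7.75% of longer and 19.9% of shorter genes among all genes, with rho of -0.58 over the 38 genes and -0.32 over all genes. What part gene length has in the changes of the single genes was not tested.

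**Figure D5:**
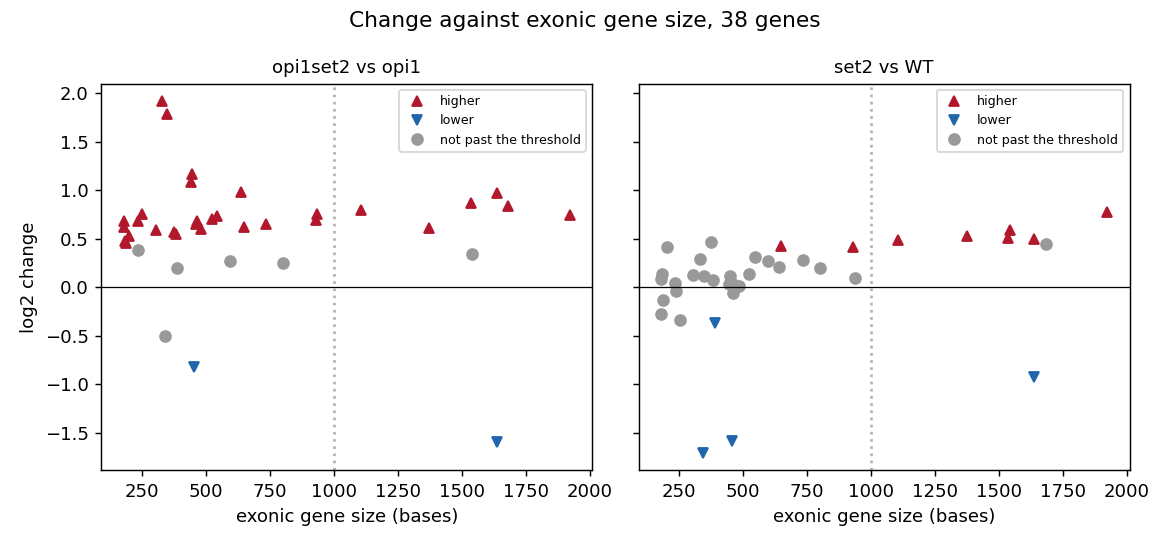
Log2 change against exonic gene size in bases for 38 genes, in opi1set2 against opi1 and in set2 against WT, with the limit of 1000 bases dotted. Rises reach over all lengths in the first comparison, and 6 of the 8 in the second are of genes above 1000 bases.

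The share of genes that rose was also set beside the promoter motif. In opi1set2 against opi1, 13 of the 15 genes with ACCAATNA in their window rose and 17 of the 24 without it, with medians of 0.62 and 0.67. Among other genes, 26.5% of the 298 with the motif and 25% of the 5447 without it were called higher. HAP4, which encodes the activating subunit of the Hap complex, stood at 114 and 85.6 FPKM in opi1set2 and 78.7 and 76.3 FPKM in opi1, with no overlap, and did not pass (0.37 ± 0.15, edgeR adjusted p = 0.0619); it passed in none of the comparisons. HAP1 was lower in opi1set2 than in set2 (-0.43 ± 0.13, edgeR adjusted p = 0.0267) and passed in no other comparison. In opi1set2 against set2, HAP5, another subunit of the Hap complex (-0.57 ± 0.15), and ROX1 (-1.01 ± 0.29), the repressor of hypoxic genes, fell too. That made 3 of the 10 factors listed, where 25.8% of all genes were called, 13.5% higher and 12.3% lower. Of these 10 factors for respiratory and hypoxic genes, HAP3, a DNA-binding subunit of the complex (0.71 ± 0.21), and MGA2 (0.95 ± 0.14), a membrane-anchored activator of fatty acid desaturation, rose and CAT8 (-0.46 ± 0.16) fell in opi1set2 against opi1. In set2 against WT, MGA2 (0.98 ± 0.14) and ROX1 (0.97 ± 0.29) rose, and 0 fell. Of all genes, 44.3% were called in opi1set2 against opi1, 23.5% higher and 20.8% lower. The share was 34.4% in set2 against WT, 18.5% higher and 15.9% lower.

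Genes for factors that build the complexes moved in both directions. The counts of these and the following lists stand beside 44.3% of all genes called in opi1set2 against opi1 (23.5% higher, 20.8% lower) and 34.4% in set2 against WT (18.5% higher, 15.9% lower). Of 36 assembly factors of the bc1 complex and the oxidase, 6 rose and 6 fell in opi1set2 against opi1, with a median of 0.03; PET111 (1.05 ± 0.15) and PET309 (0.88 ± 0.18), which activate translation of mitochondrial oxidase messages, and COX10 (1.02 ± 0.22), of heme A synthesis, had the largest changes. In set2 against WT 7 rose and 3 fell, among them COX10 (1.48 ± 0.21), PET111 (1.25 ± 0.15) and CYC3 (-1.09 ± 0.26), which attaches heme to cytochrome c. Of 14 assembly and translation factors of the ATP synthase, 3 rose and 2 fell in opi1set2 against opi1 (median -0.03), including AEP2 (0.99 ± 0.17) and ATP10 (0.88 ± 0.26). Of the 4 assembly factors of succinate dehydrogenase, 0 rose and 2 fell in opi1set2 against opi1, SDH8 (-0.91 ± 0.12) and SDH6 (-0.43 ± 0.13), and 3 fell in set2 against WT.

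Accessory subunits and regulators of the complexes did so too. In opi1set2 against opi1, 4 of 11 rose and 4 fell, where 23.5% of all genes rose and 20.8% fell. SHH3, a paralog of SDH3, stood at 588 and 742 FPKM in opi1set2 and 138 and 151 FPKM in opi1, a log2 change of 2.20 ± 0.16 (edgeR adjusted p = 2.94e-07). SHH4, a paralog of SDH4, stood at 149 and 150.1 FPKM in opi1set2 and 537 and 536 FPKM in opi1, a change of -1.84 ± 0.16 (edgeR adjusted p = 9.97e-07). TIM11 (subunit e of the ATP synthase, which with Atp20 supports dimers) rose by 1.34 ± 0.19, with 1928 and 2865 FPKM in opi1set2 and 879.9 and 1019 FPKM in opi1. Counts of SHH3 and SDH3, and of SHH4 and SDH4, could be affected by reads the copies share, which was not tested.

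Carriers of nucleotides and phosphate, cofactor synthesis and other donors were counted as well, again beside 44.3% of all genes called in opi1set2 against opi1 and 34.4% in set2 against WT. PET9, the main exchanger of ADP and ATP, stood at 1069.7 and 1257 FPKM in opi1set2 and 335 and 384 FPKM in opi1, a log2 change of 1.69 ± 0.24 (edgeR adjusted p = 6.88e-05), and the phosphate carrier MIR1 rose by 1.47 ± 0.21. These 2 were the ones that rose among the 5 carriers tested. They rose in set2 against WT as well (PET9 1.23 ± 0.24, MIR1 1.00 ± 0.21), where 2 others fell. Of 11 ubiquinone synthesis genes, 1 rose and 5 fell in opi1set2 against opi1, among them COQ4 (-0.95 ± 0.14). Of 8 heme synthesis genes, 2 rose and 2 fell, with HEM15, the ferrochelatase that inserts iron, at -1.05 ± 0.14. Of 4 other donors of electrons, GUT2 (-1.01 ± 0.15), a glycerol-3-phosphate dehydrogenase, and CYB2 (-0.80 ± 0.15), the lactate dehydrogenase that feeds cytochrome c, fell and 0 rose. In set2 against WT, 1 of the ubiquinone genes rose and 4 fell, 1 of the heme genes rose and 3 fell, and 0 of the other donors passed (4 tested, edgeR).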

How the data were processed

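RNA was extracted with a yeast RNA kit and 1 µg of total RNA per sample went into an Illumina library, per the labels. The submitters' processing notes name cutadapt 1.9.1, HISAT2 2.0.1, HTSeq 0.6.1 and the build sacCer3; strand setting and annotation are not given in the sources used here. The authors deposited whole counts per gene and FPKM, which equal counts divided by exonic size and library total (recomputed within 0.005). Of 7126 genes, 6583 whose deposited FPKM reached 1 in 2 or more libraries were tested (6580 without the deleted genes). Counts were fitted with edgeR 4.0.16 (TMM scaling, factors 0.897 to 1.077; quasi-likelihood test; 1 mean per genotype over all 12 libraries, 6 residual degrees of freedom; Benjamini-Hochberg over all genes tested; R 4.3.3). The common biological coefficient of variation was 0.12. Printed levels are TMM-scaled FPKM, so they differ from the deposited ones by the scaling. An SE is the log2 change divided by the square root of the F statistic.

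Members and lists were chosen with earlier results of these data known. Named genes were, per comparison, up to 8 called higher and 8 lower by size of change, the isoform pairs, and the highest and lowest of each complex. Alternatives were median-of-ratios scaling, no filter, DESeq2 1.42.0, limma 3.58.1 on log2(FPKM + 1) and log2(FPKM + 0.1), a replicate block, and each library of the groups compared left out. The fit without cho2set2 replicate 1 was made for every comparison and is counted among the fits with a library left out. In comparisons without cho2set2 it leaves the libraries compared as they were, and bears on the estimate of the spread. On simulated counts for opi1set2 against opi1 (6583 genes, 200 changed), 61.2% of 1.5-fold, 97% of 2-fold and 100% of 4-fold changes were recovered. Of 178 calls there, 6 were false. The changed genes were drawn above a lower limit of level, and the spread of each gene was set by the trend with level. In the data 44.3% of all genes were called, far more than were changed there, so these shares do not measure the power of this comparison. A count of 0 allowed 0.317 to 0.406 CPM, from 3 counts. The 2 libraries of a genotype differed by more than counting noise (chi-square per degree of freedom 7.87 to 24.9), so none was treated as a repeat deposit of another; that does not show separate cultures.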

Additional observations from a re-analysis of the deposited data

Results flagged for a closer look

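The change with loss of SET2 differed between cells without and with OPI1 for 8 genes, by the test of the difference itself (edgeR, adjusted p below 0.05 over all genes). On the log2 scale the difference was 1.66 for ATP20 of the ATP synthase, 1.63 for CYC1, 1.09 for COX12, 1.05 for QCR6, 0.96 for ATP18, 0.72 for COX8 and 0.71 for COX5A. It was -0.68 for NDE2, which fell in both settings. The differences draw on the WT libraries, whose replicate 1 was above replicate 2 in 34 of 38 genes, and they moved with these libraries. They also hung on other libraries. The call of CYC1 was lost without opi1 replicate 2 and without set2 replicate 1. Those of ATP18 and COX12 were lost without opi1set2 replicate 2, either opi1 library or set2 replicate 1, and without WT replicate 1. Without WT replicate 1, ATP20 (1.37) and CYC1 (1.21) were called and the other 6 genes were not, and the median difference of the 39 genes was 0.295, against 0.642 without WT replicate 2.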

How the results depend on the processing

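Of 87 results for called genes, 87 kept their direction and side of the threshold by DESeq2, 82 under median-of-ratios scaling, 83 without the filter, 75 with a replicate block, and 75 and 72 by limma with pseudocounts of 1 and 0.1. With 1 library left out, 293 of 455 such results kept their call, 162 lost it and 0 changed direction. The fits with 1 library left out include that without cho2set2 replicate 1 also in comparisons without cho2set2, where the libraries compared stay the same. The genes called in cho2 against WT numbered 0 by both limma settings and with the block. They numbered 2 by DESeq2 in cho2set2 against set2 and in the CHO2 difference. In the OPI1 difference they numbered 15 by DESeq2, 4 and 2 by limma, and 5 with the block. Among genes that were not called, COX5A in set2 against WT was at 0.016 by both limma settings and ran from -0.22 to 0.12 with 1 library left out, and CYC1 ran from -0.038 to 0.72; the cause was not tested. With 1 library left out, the genes called ran from 2 to 13 in set2 against WT, 0 to 2 in cho2 against WT, 3 to 12 in opi1 against WT, 2 to 4 in cho2set2 against cho2, 24 to 34 in opi1set2 against opi1, 0 to 2 in cho2set2 against set2, 4 to 18 in opi1set2 against set2, 0 to 1 in the CHO2 difference and 1 to 14 in the OPI1 difference.

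Over all genes, DESeq2 called 184 in cho2 against WT, 127 in the CHO2 difference and 615 in the OPI1 difference, against 113, 60 and 360 by edgeR. Limma called 18 and 15 in the CHO2 difference and 189 and 184 in the OPI1 difference. Limma, on FPKM without composition scaling, moved the median of all genes to -0.14 in opi1 against WT and to 0.15 in the OPI1 difference. Deviations of same-numbered libraries correlated at -0.329 to 0.329 over 15 pairs of genotypes, with a median of 0.00849. The main fit did not pair samples by replicate number, and whether some genotypes share a batch was not tested. Of the 39 genes, not of all genes, the replicate block called 9 in set2 against WT, 6 in opi1 against WT and 8 in cho2set2 against cho2. It called 32 of the 39 in opi1set2 against opi1, 1 in cho2set2 against set2 and 14 in opi1set2 against set2. The main fit called 12, 8, 11, 32, 1 and 14 of the 39, in the same order.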

Other observations

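The partners of these subunits encoded in mitochondrial DNA were barely covered, with 0.0186% to 0.0611% of all counts per library. Of the 6 such genes tested, COX2, an oxidase core subunit, was the 1 called in set2 against WT, where 34.4% of all genes were. It averaged 3.64 FPKM in set2 and 8.42 FPKM in WT, a log2 change of -1.21 ± 0.37 (edgeR adjusted p = 0.0208). COB, cytochrome b of the bc1 complex, was the 1 called in opi1set2 against set2, where 25.8% of all genes were. It averaged 1.71 FPKM in opi1set2 and 0.404 FPKM in set2, a log2 change of 2.03 ± 0.67 (edgeR adjusted p = 0.0383). The set2 level of COB lay below the limit of 1 FPKM used to choose genes for testing, so its change rests on values near the floor.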
